A study of Homo sapiens with 4 samples.

Results

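Autophagy and lysosome genes were followed as a set of 43 genes chosen by name: the machinery that builds the autophagosome, the receptors that load it, the transcription factors of the lysosome, and membrane, proton pump and enzyme genes of the lysosome itself, with the segregase VCP. All 43 symbols were among the 15037 genes of the count table, and all 43 were also among the 13497 genes that passed the filter on low counts and were tested. Messenger RNA had been sequenced from A549, an established line of lung carcinoma epithelial cells, grown in DMEM. There were 2 libraries of cells with a knockdown of PSME4 (PSME4 KD), an activator that caps the proteasome core, and 2 libraries of control cells whose knockdown is labelled RFP (control KD). The labels name no vector, sequence or method for either knockdown, nor do they tie the 2 libraries of a group to different cultures. The p-values therefore reflect the scatter among these libraries, part or all of which could be technical.

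In macroautophagy a double membrane closes around cytoplasmic cargo and the resulting autophagosome fuses with the lysosome, where hydrolases work at acidic pH. A kinase complex around ULK1 starts the process, a lipid kinase complex marks the membrane with PI3P, lipid is transferred into the growing membrane, and small ubiquitin-like proteins of the ATG8 family are conjugated to it and bind cargo receptors. The lysosome and the proteasome are the main routes of protein degradation in the cell.

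The libraries held 15208588 and 14845701 counts in PSME4 KD 1 and 2, and 11766371 and 11769392 counts in control KD 1 and 2. PSME4 had 75.3 and 85.1 CPM (each count scaled to a library of 1e6, with TMM factors) in the PSME4 KD libraries, against 158 and 180 CPM in the control KD libraries, a log2 fold change of -1.08 (SE 0.20, adjusted p = 0.000855 by edgeR). With 1 library left out it was between -1.17 and -0.97 and passed only without PSME4 KD 2. Fold changes throughout are PSME4 KD over control KD from edgeR's quasi-likelihood test on all 4 libraries, and adjusted p-values are by Benjamini-Hochberg over all 13497 tested genes with a threshold of 0.05. Both groups carried high levels of the keratins KRT8 and KRT18 and of the A549 enzymes AKR1B10 and ALDH1A1, while 5 of 9 leukocyte markers, 3 of 6 fibroblast markers and 5 of 5 endothelial markers were not among the listed genes. Of the A549 genes, EPCAM and KRT19 were under 10 CPM in every library. The leukocyte markers listed and tested summed to 41.2 and 41.7 CPM in PSME4 KD and 35.0 and 30.3 CPM in control KD. Most of this was CD68, at 32.1 and 33.5 CPM in PSME4 KD and 28.5 and 23.7 CPM in control KD. The fibroblast markers summed to 26.4 and 28.6 CPM in PSME4 KD and 17.2 and 21.2 CPM in control KD. Of the 3 fibroblast markers tested COL1A1 rose, with 17.3 and 19.4 CPM in PSME4 KD and 10.6 and 11.4 CPM in control KD. PDGFRA fell, with 0.723 and 1.31 CPM in PSME4 KD and 2.60 and 2.58 CPM in control KD. Neither call was kept once the libraries had been corrected for GC content, where LUM was called higher instead. PTPRC, CD3E and COL1A2 had no row. The part of these markers in the results was not tested.

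Most of the autophagy and lysosome genes did not pass the test, which does not show that they were unchanged. In PSME4 KD cells 1 of the 43 genes rose, the PI3P effector WIPI1, and 2 fell, the conjugation factor ATG5 and the protease cathepsin L (CTSL), while 40 did not pass the test. Over all tested genes 10.6% passed, 4.56% higher and 6% lower (616 and 810 genes, or 853 and 764 with library size as the only scaling), so the 3 of 43 called here (6.98%) did not stand above the background. The median log2 fold change was 0.03 over the 43 genes and -0.00 over all tested genes, with 22 of the 43 values above 0 and 21 below. The median absolute log2 fold change was 0.28 for the 43 genes and 0.31 for all genes. The PSME4 KD libraries were both above the control KD libraries for 12 of the 43 genes and both below for 12, beside 26.7% and 28.4% of all tested genes. The summed level of the 43 genes was 4833 and 4852 CPM in PSME4 KD 1 and 2 and 5013 and 4840 CPM in control KD 1 and 2, which overlap.

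**Figure D1:**
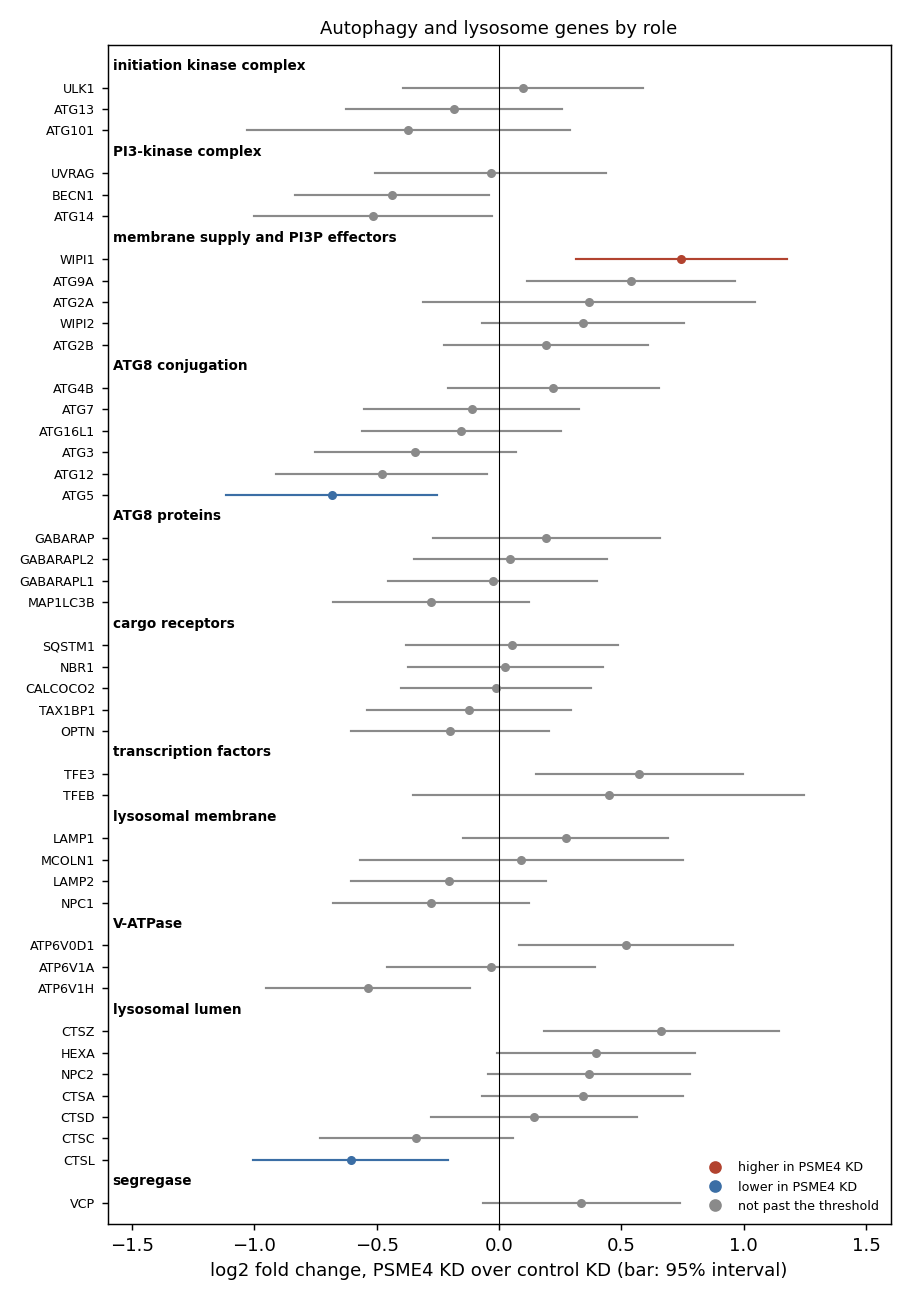
Log2 fold changes of the 43 genes (PSME4 KD over control KD, x axis) grouped by role, with points for the estimate and bars for the 95% interval from edgeR on 2 libraries a group. WIPI1 (0.75) lies to the right, ATG5 (-0.68) and CTSL (-0.61) to the left, and the other 40 genes, in grey, did not pass the threshold.

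The precision of these values, as edgeR estimates it by sharing variance across genes, bounds what could be missed. It does not rest on the 2 libraries a group of each gene alone. The standard error of the log2 fold change ran from 0.19 to 0.39 over the 43 genes, with 148 to 26802 counts per gene over all 4 libraries. For 35 of the 40 genes that did not pass, the 95% interval of the fold change lay inside a 2-fold change in either direction. The same held for 8663 of all 12071 tested genes that did not pass. The median standard error was 0.21 for the 43 genes and 0.23 for all tested genes, at median control KD levels of 67.2 and 20.3 CPM. Among these 40 genes the bounds furthest from 0 were -1.03 for ATG101 and 1.25 for TFEB, both at few counts. The 2 control KD libraries differed from each other by more than the 2 groups did for 20 of the 43 genes, and for 44.6% of all tested genes.

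The initiation complex was measured through ULK1, the kinase that starts autophagosome formation, and its partners ATG13 and ATG101. None of the 3 passed and in all 3 the groups overlapped. ULK1 had 15.4 and 16.8 CPM in PSME4 KD and 17.1 and 13.0 CPM in control KD (log2 fold change 0.10, SE 0.24). ATG13 had 39.3 and 59.0 CPM in PSME4 KD and 61.3 and 50.5 CPM in control KD (-0.18, SE 0.22). ATG101 had 5.78 and 6.50 CPM in PSME4 KD and 11.2 and 4.73 CPM in control KD (-0.37, SE 0.32). Its control KD libraries stood on either side of both PSME4 KD libraries, and the value was 0.37 without control KD 1 and -0.86 without control KD 2.

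The lipid kinase complex, which makes the PI3P of the early autophagosome, was measured through its scaffold BECN1 and the alternative subunits ATG14 and UVRAG. BECN1 had 79.7 and 75.9 CPM in PSME4 KD against 110 and 101 CPM in control KD, a log2 value of -0.44 (SE 0.19, adjusted p = 0.146 by edgeR). ATG14, which directs the complex to autophagosome formation, had 11.2 and 12.7 CPM in PSME4 KD against 16.5 and 17.5 CPM in control KD, a log2 value of -0.52 (SE 0.24, adjusted p = 0.164 by edgeR). In both genes the PSME4 KD libraries were below the control KD libraries, and neither passed. UVRAG, the subunit that acts in endosomal and late autophagic traffic, had 16.9 and 22.7 CPM in PSME4 KD and 21.0 and 19.6 CPM in control KD, which overlap (-0.04, SE 0.23).

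Genes that supply membrane or read PI3P had positive values in all 5 cases, and 1 of the 5 passed. Over all tested genes 6723 of 13497 values were positive and 10.6% passed, and the direction of so small a group was not tested. WIPI1, a PI3P-binding protein of the forming autophagosome, had 50.2 and 57.9 CPM in PSME4 KD libraries against 28.1 and 36.4 CPM in control KD libraries. Both PSME4 KD libraries were above both control KD libraries, the mean was 54.1 ± 5.49 CPM in PSME4 KD and 32.2 ± 5.84 CPM in control KD (SD, n = 2 each), and the gene rose 1.68-fold (log2 fold change 0.75, SE 0.21, adjusted p = 0.0233 by edgeR). The call was kept by all 9 other fits to the 4 libraries, but by none of the fits with 1 library left out, where the log2 value was between 0.57 and 0.95. The authors' deposited table gave WIPI1 a log2 fold change of -0.75 for control KD over PSME4 KD and an adjusted p of 0.0238. WIPI1 lies on chromosome 17 at 68421281 to 68457496 of GRCh38 and overlaps ARSG, PRKAR1A and MIR635 there. No source used here says whether counting was by strand, so reads of those genes could have been shared with it. The limit is not particular to WIPI1, since 24 of the 43 genes overlap another RefSeq gene.

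The paralogue WIPI2, which recruits the conjugation machinery to PI3P, had 52.3 and 54.1 CPM in PSME4 KD against 38.8 and 45 CPM in control KD (0.34, SE 0.20). The groups did not overlap, and it did not pass. With GC content corrected for, WIPI2 stood at 0.16. ATG9A, the scramblase of the vesicles that seed the autophagosome, had 45 and 51.7 CPM in PSME4 KD against 36.0 and 30.5 CPM in control KD. It stood at a log2 value of 0.54 (SE 0.21, adjusted p = 0.0926 by edgeR) with groups that did not overlap, and at 0.30 once the libraries had been corrected for GC content. The lipid transfer proteins ATG2A (0.37, SE 0.33) and ATG2B (0.19, SE 0.20) did not pass either. ATG2A was among the lowest of the 43 genes, at 3.94 and 4.86 CPM in PSME4 KD and 3.37 and 3.44 CPM in control KD.

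The conjugation genes, which attach ATG8 proteins to lipid, had 5 values below 0 and 1 above, and 1 of the 6 passed. Of all 13497 tested genes 6774 were below 0, and the direction of this group was not tested either. ATG5, which with ATG12 and ATG16L1 forms the ligase-like complex of this reaction, had 47.8 and 33.6 CPM in PSME4 KD libraries against 70.3 and 60.5 CPM in control KD libraries. Both PSME4 KD libraries were below both control KD libraries, with 40.7 ± 10.01 CPM in PSME4 KD and 65.4 ± 6.87 CPM in control KD (SD, n = 2 each), and the gene fell 1.61-fold (log2 fold change -0.68, SE 0.21, adjusted p = 0.0361 by edgeR). This call was lost once GC content was corrected for (-0.46, adjusted p = 0.134 by edgeR), and the log2 value was -0.43 without PSME4 KD 2 and -0.96 without PSME4 KD 1. It passed in no fit with 1 library left out. The longest ATG5 transcript has a GC content of 38.8%, among the lowest of the 43 genes, and the authors' deposited table gave an adjusted p of 0.0635. ATG5 overlaps the RefSeq genes RN7SL47P and RNU6-344P.

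ATG12, the ubiquitin-like partner of ATG5, had 56.0 and 39.5 CPM in PSME4 KD against 60.9 and 72.4 CPM in control KD (-0.48, SE 0.21, adjusted p = 0.141 by edgeR). It stood at -0.20 after the GC correction and did not pass in either fit. ATG3, the E2-like enzyme of the lipid transfer step, had 61.9 and 72.6 CPM in PSME4 KD against 94.0 and 76.5 CPM in control KD (-0.34, SE 0.20), and its value after the GC correction was -0.14. ATG16L1 (-0.15, SE 0.20), the E1-like enzyme ATG7 (-0.11, SE 0.22) and the protease ATG4B (0.22, SE 0.21), which trims ATG8 proteins, were closer to their control level. For ATG7 the groups overlapped, while for the other 2 they did not.

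None of the 4 ATG8 proteins passed, and the log2 values ran from -0.28 to 0.19. MAP1LC3B, the LC3 protein whose lipid-bound form is the usual marker of autophagosomes, had 177 and 142 CPM in PSME4 KD against 208 and 179 CPM in control KD (-0.28, SE 0.20). The groups did not overlap, by a margin smaller than the spread within either group. GABARAP, the most abundant of the 4 per kilobase, had 414 and 535 CPM in PSME4 KD and 537 and 293 CPM in control KD (0.19, SE 0.23). Control KD 1 was above and control KD 2 below both PSME4 KD libraries, and the log2 value was 0.69 without control KD 1 and -0.17 without control KD 2. GABARAPL1 (-0.03, SE 0.21) had 39.8 and 45.2 CPM in PSME4 KD and 48.8 and 37.7 CPM in control KD. GABARAPL2 (0.05, SE 0.19) had 139 and 128 CPM in PSME4 KD and 122 and 137 CPM in control KD. Both overlapped between the groups, and the 95% interval of GABARAPL2 was -0.35 to 0.44. Reads of MAP1LC3B and of its near-identical copy MAP1LC3B2, which was also listed, cannot be fully told apart.

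The cargo receptors, which link ubiquitin-tagged or other cargo to ATG8 proteins, stood near their control level. None of the 5 passed, their log2 values lay between -0.20 and 0.05, and in 4 of the 5 the groups overlapped. SQSTM1, which carries ubiquitin-tagged protein into autophagosomes and is itself degraded there, had 334 and 234 CPM in PSME4 KD and 322 and 226 CPM in control KD (0.05, SE 0.21). The difference between the libraries of each group was far larger than that between the groups. CALCOCO2, a receptor for bacteria and mitochondria, had 260 and 277 CPM in PSME4 KD and 266 and 276 CPM in control KD (-0.01, SE 0.19), with a 95% interval of -0.40 to 0.38. NBR1 (0.03, SE 0.19) and TAX1BP1 (-0.12, SE 0.20) also overlapped. OPTN (-0.20, SE 0.20) had 78.3 and 64.8 CPM in PSME4 KD against 82.0 and 82.5 CPM in control KD, which did not overlap.

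**Figure D2:**
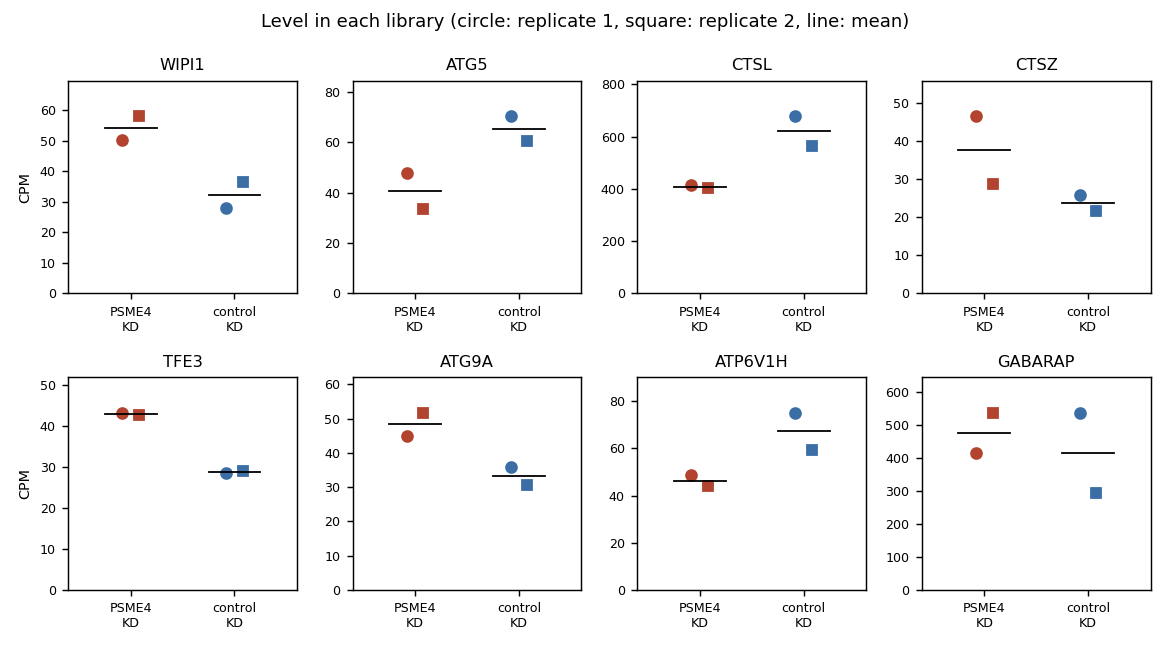
CPM (y axis, from 0) in each library for 8 of the genes, with PSME4 KD left of control KD in each panel, circles for replicate 1, squares for replicate 2 and a line at the mean of 2 libraries. The groups are apart for WIPI1, ATG5, CTSL, CTSZ, TFE3, ATG9A and ATP6V1H, and overlap for GABARAP, whose control KD libraries stood at 537 and 293 CPM.

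TFEB and TFE3 are related transcription factors that, when nutrients are short, enter the nucleus and activate lysosome and autophagy genes through a CACGTG-containing element. TFE3 had 43.2 and 42.7 CPM in PSME4 KD against 28.6 and 29.1 CPM in control KD. The libraries of each group were close and the groups were apart, with a log2 value of 0.57 (SE 0.21, adjusted p = 0.0721 by edgeR) that missed the threshold. It passed with library size as the only scaling (0.61, adjusted p = 0.0497 by edgeR) and, with GC content corrected for, stood at 0.32 (adjusted p = 0.268 by edgeR). TFEB was low, at 3.74 and 2.49 CPM in PSME4 KD and 1.56 and 3.01 CPM in control KD, and its groups overlapped (0.45, SE 0.39, from 95 counts in PSME4 KD and 53 in control KD). Of the other members of this family, which are no part of the 43 genes, TFEC fell by 0.81 on the log2 scale (SE 0.25, adjusted p = 0.0404 by edgeR) but no longer passed with GC content corrected for (-0.42, adjusted p = 0.259 by edgeR), and MITF was at 0.34 (SE 0.23), or at -0.04 without control KD 1.

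The bases before the start of each gene were searched for TCACGTG, the core of the element that TFEB and TFE3 bind, on both strands. The windows were 300 bases of RefSeq promoter sequence on GRCh38.p14, 250 before and 50 after the start, and 38 of the 43 genes had one. The motif was found in 7 of these 38 genes (18.4%), against 7.28% of 10475 tested genes with a window, both counted by gene. Counted by window, and so not on the same basis, it was in 3.71% of 35116 promoter windows in the whole table. The 43 genes were chosen by name for lysosome and autophagy functions, which these factors are known to serve, so the difference is no independent result. The shorter CACGTG, which TCACGTG contains, was found in the same number of the 43 genes and, counted by window, in 7.26% of all windows. The 7 genes are shown because they hold the element, each 5′ to 3′ with matches on either strand in capitals, so that CACGTGA is TCACGTG read on the opposite strand. Overlapping matches on both strands form TCACGTGA and are counted as 1 run. Each stretch is cut close around the matches and runs no further than the start site, or than the last match where that reaches past it.
LAMP1, chr13:113297016-113297244, plus strand: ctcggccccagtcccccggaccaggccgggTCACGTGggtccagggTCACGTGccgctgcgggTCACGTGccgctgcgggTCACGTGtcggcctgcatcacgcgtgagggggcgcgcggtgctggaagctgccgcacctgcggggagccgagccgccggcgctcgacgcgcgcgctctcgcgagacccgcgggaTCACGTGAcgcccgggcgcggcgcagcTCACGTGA
MCOLN1, chr19:7522552-7522623, plus strand: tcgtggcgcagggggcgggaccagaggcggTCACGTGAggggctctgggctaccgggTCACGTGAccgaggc
CTSA, chr20:45891262-45891334, plus strand: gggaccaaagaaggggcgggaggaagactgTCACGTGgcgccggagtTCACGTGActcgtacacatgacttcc
ATP6V0D1, chr16:67481180-67481247, minus strand: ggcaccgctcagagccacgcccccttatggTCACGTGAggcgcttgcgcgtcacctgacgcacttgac
CTSD, chr11:1763938-1764004, minus strand: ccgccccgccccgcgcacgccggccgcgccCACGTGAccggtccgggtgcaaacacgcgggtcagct
ATG14, chr14:55411831-55411881, minus strand: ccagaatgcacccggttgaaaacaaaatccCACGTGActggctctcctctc
ATG3, chr3:112561951-112562011, minus strand: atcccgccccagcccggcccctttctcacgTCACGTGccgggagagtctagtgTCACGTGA

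LAMP1 held 6 runs in its window, MCOLN1, CTSA and ATG3 held 2 each, and the other 3 genes held 1. None of the 7 genes passed the test. Their log2 fold changes were 0.52 for ATP6V0D1, 0.34 for CTSA, 0.27 for LAMP1, 0.14 for CTSD, 0.09 for MCOLN1, -0.34 for ATG3 and -0.52 for ATG14. After the GC correction they were 0.28, 0.11, 0.17, -0.05, -0.12, -0.14 and -0.44 in the same order. LAMP1, with 6 runs, lay between ATP6V0D1 and CTSD, with 1 run each. Of the 763 tested genes with the motif in a window 8.78% passed, 35 higher and 32 lower, with a median log2 fold change of 0.01.

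The 3 genes that did pass had no TCACGTG in their windows. The 150 bases before a RefSeq start of each are shown because these genes carry the calls, in lower case since nothing matched. For WIPI1 and CTSL they lie just outside the gene. For ATG5 the start is an internal one, and the stretch lies inside the gene, which spans 106184476 to 106325760.
WIPI1, chr17:68457497-68457646, minus strand: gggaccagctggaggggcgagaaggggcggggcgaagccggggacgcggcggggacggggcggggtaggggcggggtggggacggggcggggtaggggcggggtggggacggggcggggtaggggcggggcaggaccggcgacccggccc
CTSL, chr9:87725969-87726118, plus strand: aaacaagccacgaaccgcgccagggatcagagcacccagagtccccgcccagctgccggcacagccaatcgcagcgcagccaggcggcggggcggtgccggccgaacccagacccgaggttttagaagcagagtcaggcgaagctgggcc
ATG5, chr6:106325438-106325587, minus strand: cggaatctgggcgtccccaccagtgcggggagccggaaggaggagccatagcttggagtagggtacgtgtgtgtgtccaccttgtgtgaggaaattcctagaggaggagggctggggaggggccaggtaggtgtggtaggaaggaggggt

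Lysosomal membrane genes did not pass in any of the 4 cases. LAMP1, a heavily glycosylated protein that lines the lysosome, had 77.2 and 58.1 CPM in PSME4 KD and 53.3 and 58.7 CPM in control KD (0.27, SE 0.20). The second PSME4 KD library lay between the 2 control KD libraries. LAMP2, its paralogue with a role in fusion and chaperone-mediated autophagy, had 249 and 228 CPM in PSME4 KD and 245 and 305 CPM in control KD (-0.21, SE 0.19). It moved to 0.08 after the GC correction, so its sign depended on that step. NPC1, which exports cholesterol from the lysosome, had 116 and 128 CPM in PSME4 KD against 133 and 163 CPM in control KD (-0.28, SE 0.20), with groups that did not overlap. The calcium channel MCOLN1 was low, at 4.66 and 4.99 CPM in PSME4 KD and 5.54 and 3.53 CPM in control KD, which overlap (0.09, SE 0.32).

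The V-ATPase, the proton pump that acidifies the lysosome, had members on both sides. ATP6V0D1, of the membrane sector, had 47.4 and 39.8 CPM in PSME4 KD against 34.3 and 26.6 CPM in control KD (0.52, SE 0.21, adjusted p = 0.119 by edgeR). ATP6V1H, a regulatory subunit of the cytosolic sector, had 48.9 and 43.8 CPM in PSME4 KD against 75.1 and 59.3 CPM in control KD (-0.54, SE 0.20, adjusted p = 0.0876 by edgeR). The groups did not overlap for either gene, in opposite directions, and neither passed. After the GC correction ATP6V0D1 stood at 0.28 and ATP6V1H at -0.55. The catalytic subunit ATP6V1A had 148 and 127 CPM in PSME4 KD and 112 and 169 CPM in control KD, which overlap (-0.03, SE 0.21). ATP6V1H is the 1 of the 43 genes on chromosome 8. The 459 tested genes of that chromosome had a median log2 value of -0.36, and 21.4% of them fell. The part of this chromosome-wide shift in the ATP6V1H value was not tested.

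In the lysosomal lumen cathepsin L fell. CTSL, a cysteine protease, had 413 and 402 CPM in PSME4 KD libraries against 678 and 564 CPM in control KD libraries. The PSME4 KD libraries were close to each other and both below the control KD libraries, at 408 ± 8.23 CPM in PSME4 KD and 621 ± 80.6 CPM in control KD (SD, n = 2 each). The fall was 1.52-fold (log2 fold change -0.61, SE 0.19, adjusted p = 0.0432 by edgeR), from 12417 counts in PSME4 KD and 14385 in control KD. With GC content corrected for, the value was -0.74 (adjusted p = 0.0119 by edgeR), the call held in all 9 other fits to the 4 libraries, and the authors' deposited table gave an adjusted p of 0.0302. With 1 library left out the log2 value was between -0.73 and -0.47 and did not pass. CTSL lies on chromosome 9 at 87726119 to 87731469 of GRCh38 and overlaps no other RefSeq gene.

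The other lumen genes did not pass. CTSZ, a carboxypeptidase, had 46.4 and 28.6 CPM in PSME4 KD against 25.7 and 21.7 CPM in control KD (0.66, SE 0.23, adjusted p = 0.0654 by edgeR). The groups did not overlap, but the PSME4 KD libraries differed widely, and the value was 1.00 without PSME4 KD 2 and 0.27 without PSME4 KD 1. After the GC correction CTSZ stood at 0.42. It passed without PSME4 KD 2 (adjusted p = 0.0413 by edgeR), with library size as the only scaling and under the stricter count filter. HEXA, a subunit of the hexosaminidase that degrades gangliosides, had 92.1 and 115 CPM in PSME4 KD against 78.7 and 78.7 CPM in control KD (0.39, SE 0.20, adjusted p = 0.204 by edgeR). NPC2, the soluble cholesterol carrier that works with NPC1, had 365 and 321 CPM in PSME4 KD against 221 and 311 CPM in control KD (0.37, SE 0.20). CTSA, a serine carboxypeptidase, had 85.6 and 89.8 CPM in PSME4 KD against 78.6 and 59.8 CPM in control KD (0.34, SE 0.20). CTSC, the dipeptidyl peptidase that activates granule proteases, had 111 and 113 CPM in PSME4 KD against 131 and 152 CPM in control KD (-0.34, SE 0.19). None of these 4 overlapped between the groups. After the GC correction HEXA stood at 0.40, NPC2 at 0.46, CTSA at 0.11 and CTSC at -0.07. The aspartic protease CTSD overlapped, at 98.6 and 90.4 CPM in PSME4 KD and 101 and 70.3 CPM in control KD (0.14, SE 0.21).

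VCP, an ATPase that pulls ubiquitin-tagged proteins out of complexes and membranes and also serves lysosome clearance, had 389 and 482 CPM in PSME4 KD against 318 and 371 CPM in control KD. Both PSME4 KD libraries were above both control KD libraries, with a log2 value of 0.34 (SE 0.20, adjusted p = 0.281 by edgeR) that did not pass and stood at 0.21 after the GC correction.

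Levels within the set spanned a wide range when expressed per kilobase of transcript. CTSL stood at 187 CPM per kilobase in PSME4 KD and at 285 in control KD, where it was the highest of the 43 genes. GABARAP was at 291 CPM per kilobase in PSME4 KD and 254 in control KD, and NPC2 at 239 in PSME4 KD and 185 in control KD, so that both were above CTSL in PSME4 KD. In control KD the libraries of GABARAP overlapped those of CTSL and those of NPC2, so its place between them is within the spread, while both CTSL libraries were above both NPC2 libraries. The lowest were ATG2A, at 0.692 CPM per kilobase in PSME4 KD and 0.536 in control KD, TFEB, at 1.32 in PSME4 KD and 0.970 in control KD, and MCOLN1, at 2.32 in PSME4 KD and 2.18 in control KD. Lengths were those of a principal transcript in GENCODE 29, or of the longest one where none is marked, and the isoform used in these cells is not known.

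**Figure D3:**
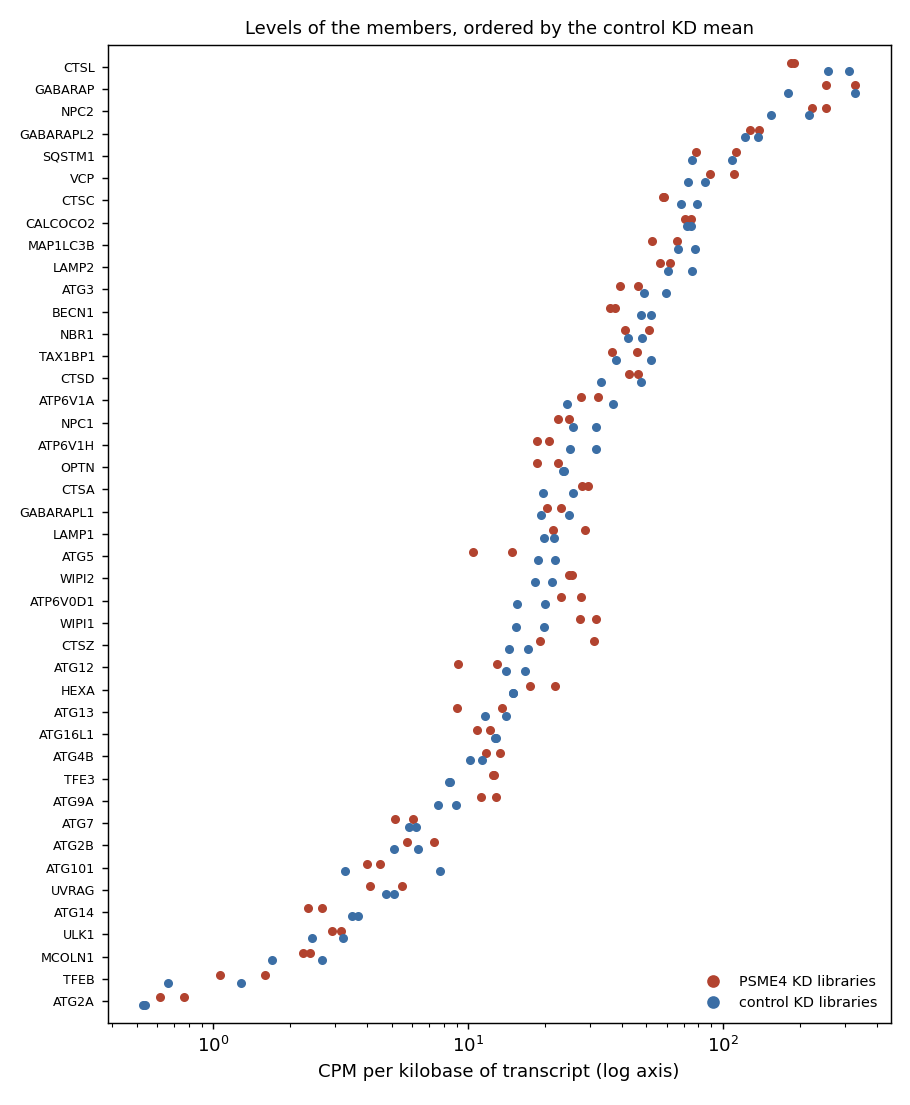
Level of each of the 43 genes in CPM per kilobase of transcript (x axis, log scale), 1 point per library, with the PSME4 KD pair drawn above the control KD pair and genes ordered by their control KD mean. Levels run from about 0.5 for ATG2A to over 250 for CTSL and GABARAP, and for most genes the 2 groups lie close together.

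Fold changes within the set were higher for GC-rich transcripts, as over all genes. Spearman's rho of the fold change with GC content was 0.51 across the 43 genes and 0.40 across all tested genes with a value, and these genes share the same 4 libraries and are no independent replicates. Of the 13 genes with more than 55% GC 12 had a positive value, ATG101 being the exception, with a median of 0.34. Of the 13 genes with less than 45% GC 9 had a negative value, with a median of -0.20. Over all tested genes the medians of these GC classes were 0.26 and -0.21. The 2 control KD libraries differed along the same axis, with a rho of -0.50 for control KD 2 over control KD 1 across all tested genes. With GC content corrected for in each library, the medians of the high and low GC genes of the set were 0.11 and 0.08. The sign changed in 8 of the 43 genes, none of them called: ULK1, ATG4B, SQSTM1, CALCOCO2, LAMP2, MCOLN1, ATP6V1A and CTSD. With this correction 2 of the 43 genes passed, WIPI1 and CTSL, beside 9.34% of all tested genes.

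**Figure D4:**
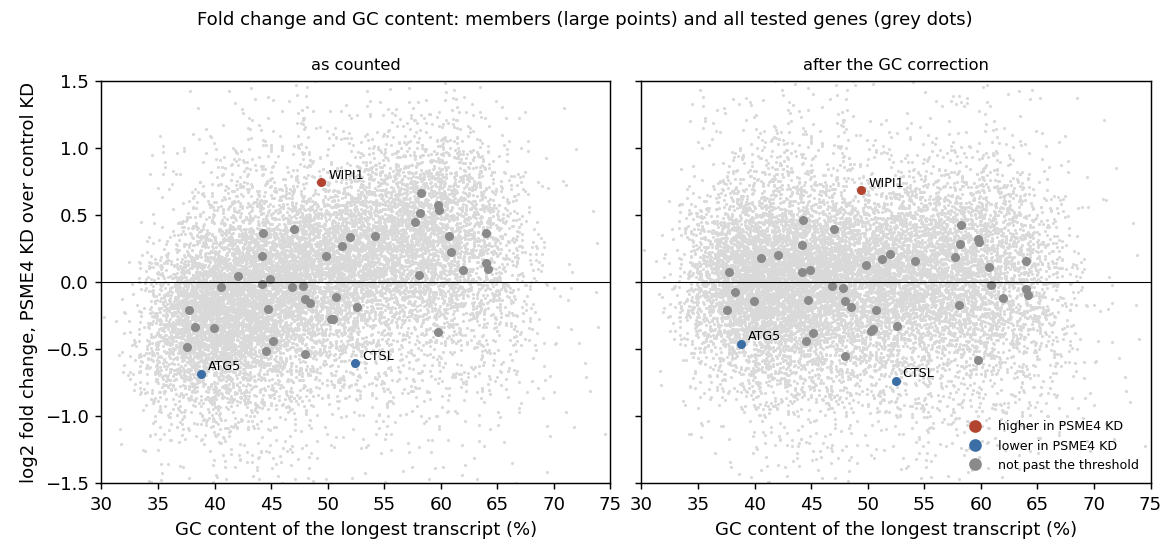
Log2 fold change (PSME4 KD over control KD, y axis) against the GC content of the longest transcript (x axis, percent) as counted (left) and after the GC correction (right), with large points for the 43 genes coloured by their call as counted and grey dots for all tested genes within the axes. On the left the points climb with GC content, and on the right WIPI1 (0.68) and CTSL (-0.74) stay apart from 0 while ATG5 (-0.46) no longer passed.

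Other genes of the pathway, taken from 6 lists, moved in both directions. Of 171 such genes tested, 12 rose and 12 fell, 14% in all beside the 10.6% of all tested genes, and the median log2 fold change was 0.05. After the GC correction 15 of the 171 passed, beside 1260 of the 13497 tested genes (9.34%). Of the 24 calls 13 were kept, beside 927 of the 1426 calls over all tested genes. TP53INP1 (0.58 as counted, 0.83 corrected) and the V-ATPase gene ATP6V1F (-0.47 as counted, -0.64 corrected) passed after the correction but not before. None of the 24 was called in more than 1 of the 4 fits with a library left out, which called 0 to 3 of the 171 genes.

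Among 37 other autophagy genes 3 rose and 4 fell. MAP1LC3A, a paralogue of MAP1LC3B, had 4.01 and 4.59 CPM in PSME4 KD against 1.47 and 1.29 CPM in control KD (log2 fold change 1.63, SE 0.38). The gene was low, with 131 counts in PSME4 KD and 32 in control KD. Its call was kept by 8 of the 9 other fits to the 4 libraries, and DESeq2 gave it no adjusted p. TP53INP2 (0.97, SE 0.26), which binds ATG8 proteins in the nucleus and cytoplasm, and AMBRA1 (0.85, SE 0.25), a partner of BECN1, also rose. The kinase TBK1 (-0.87, SE 0.21), which phosphorylates cargo receptors, fell, as did the scramblase TMEM41B (-0.79, SE 0.20), the receptor for endoplasmic reticulum cargo CCPG1 (-0.64, SE 0.20) and the ATG8 protease ATG4C (-0.72, SE 0.24). After the GC correction CCPG1 (-0.40), ATG4C (-0.37) and AMBRA1 (0.64) no longer passed.

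Among 38 other lumen genes 3 rose and 2 fell. CTSF, another cysteine cathepsin, had 35.3 and 27.3 CPM in PSME4 KD against 16.2 and 11.9 CPM in control KD (1.16, SE 0.24). The sialidase NEU1 (0.74, SE 0.23) and the acid nuclease DNASE2 (0.71, SE 0.22) also rose. CTSB, a cysteine cathepsin, had 283 and 306 CPM in PSME4 KD against 674 and 500 CPM in control KD (-0.99, SE 0.20), and the acid lipase LIPA (-0.63, SE 0.19) fell too. DNASE2 (0.50) and LIPA (-0.50) did not pass after the GC correction. Among the cysteine cathepsins CTSL and CTSB thus fell and CTSF rose, while CTSZ, CTSC, CTSH (0.24, SE 0.21), CTSS (-0.13, SE 0.22), CTSK (0.17, SE 0.32), CTSO (-0.51, SE 0.28) and CTSV (0.31, SE 0.24) did not pass.

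Among 25 other membrane and sorting genes CLN3 (0.79, SE 0.21) and the transporter ABCA2 (0.90, SE 0.27) rose, and OSTM1 (-1.14, SE 0.21), a subunit of the lysosomal chloride exchanger, fell. After the GC correction neither CLN3 (0.54) nor ABCA2 (0.71) passed. Of 17 other V-ATPase genes TCIRG1 (0.63, SE 0.21), a membrane sector subunit whose adjusted p lay just under the threshold, rose and ATP6V1C1 (-0.91, SE 0.20) fell, and TCIRG1 (0.43) did not pass after the GC correction. A list of 33 genes held the kinase complex mTORC1, the proteins that relay nutrient signals to it at the lysosome, AMPK subunits, MITF and TFEC, and 3 of the 33 rose and 3 fell. The Ragulator subunits LAMTOR2 (0.85, SE 0.23) and LAMTOR3 (-0.88, SE 0.21) went opposite ways, NPRL3 (0.89, SE 0.27) and MLST8 (0.80, SE 0.26) rose, and the AMPK subunit PRKAG2 (-0.62, SE 0.20) fell with TFEC. Of these 6, NPRL3 (0.67), MLST8 (0.59) and TFEC (-0.42) did not pass after the GC correction. Of 21 cofactors of VCP only DERL1 (-0.85, SE 0.19) passed, and it fell. The smallest adjusted p among the 24 was 0.00102, for OSTM1, by edgeR.

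Chromosome 8 held 12 of the 171 genes, and 3 of the 12 genes that fell were on it, CTSB, ATP6V1C1 and DERL1. Of the 12 pathway genes on chromosome 8, 10 had a negative value. The median log2 fold change of these 12 was -0.43, beside the -0.36 of all tested genes of that chromosome. The part of the chromosome in these 3 calls was not tested.

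**Figure D5:**
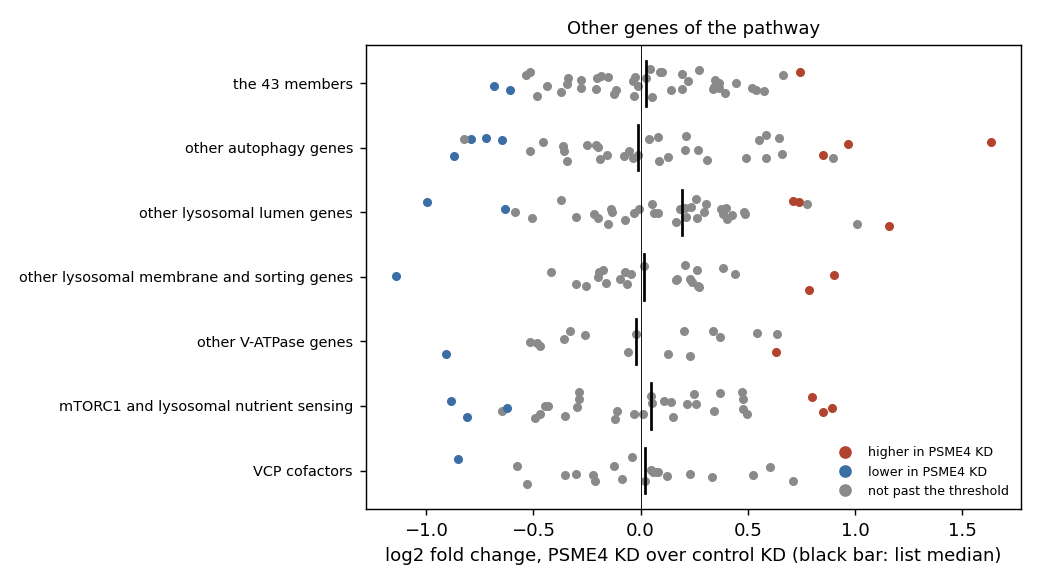
Log2 fold changes (PSME4 KD over control KD, x axis) of the 43 genes and of the 171 other pathway genes by list, 1 point per gene, red or blue where the gene passed the threshold, with a black bar at each list's median. Every list lies on both sides of 0, and its median is between -0.02 and 0.19.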

How the data were processed

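The deposited table held raw counts per gene for 4 libraries of polyadenylated RNA (Lexogen SENSE kit, per the labels' protocols). The build hg38 and the tools STAR, cutadapt and DESeq2 are named, per the submitters' processing notes. No source used here gives their versions, the read counter, its strand setting or the annotation. The authors' deposited log2 fold changes run control KD over PSME4 KD, with a deposited adjusted p-value. The largest count of each listed gene was at least 6, so the table had been filtered before deposit.

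Testing used edgeR 4.0.16 under R 4.3.3 (filterByExpr, TMM, glmQLFit, glmQLFTest) in a model of group alone, which leaves 2 residual degrees of freedom. Standard errors are the fold change over the square root of F, and SDs are over 2 libraries. Replicates varied beyond sampling noise (chi-square per degree of freedom 18.0 in PSME4 KD and 22.3 in control KD), and the coefficient of variation was 15.3%. Alternatives included DESeq2 1.42.0 and limma 3.58.1 voom, other scalings and filters, the replicate number as a block, a GC correction and each library left out in turn. The GC correction offsets every library by its lowess trend (span 0.4) on the GC content of the longest GENCODE 29 transcript, available for 97.3% of tested genes. The steps were tested on simulated data. All members are named, with PSME4 and, from each pathway list, up to 4 called genes in each direction with the smallest p-values. MITF, TP53INP1, ATP6V1F and the uncalled cysteine cathepsins outside the set fall outside that rule and were named after their values were seen. The members and lists were chosen with earlier results of these data known.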

Additional observations from a re-analysis of the deposited data

How the results depend on the processing

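Scaling by DESeq2's size factors, DESeq2, limma voom and no count filter left the count of the 43 genes called at 3. Library size as the only scaling gave 5 of the 43, 3 higher, adding TFE3 and CTSZ. At least 50 counts in 2 libraries gave 2 higher, adding CTSZ. A threshold of 0.10 gave 7, 4 of them higher, and over all tested genes 2240, 1006 higher and 1234 lower. The GC correction left 1 of the 43 lower and 15 of the other pathway genes called. With 1 library left out the counts were 0 to 1 for the 43 genes, 0 to 1 higher and 0 to 0 lower, 0 to 3 for the other pathway genes, and 43 to 281 for all tested genes, 15 to 192 higher and 26 to 89 lower. PSME4 was then between -1.17 and -0.97 and passed only without PSME4 KD 2. A group of 1 library is assumed there to vary like the other. The replicate numbers are shared by the groups but mark no batch in the labels, and deviations of same-numbered libraries correlated at -0.04 over 8748 genes. With the replicate block 3 of the 43 genes, 24 other pathway genes and 1554 of all tested genes passed, and with the block and the GC correction 3, 20 and 1608, with ATP6V1H in place of ATG5. No value among the called genes changed its sign under any of these settings. Depth limits ATG101, ATG2A, TFEB and MCOLN1 most, each under 10 CPM in control KD.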
